A study of Mus musculus with 2 samples.

Results

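The cytochrome P450 genes were examined on 2 one-colour Agilent mouse arrays, 1 of control CMT93 cells and 1 of CMT93 cells given lipopolysaccharide (LPS), a glycolipid of the Gram-negative outer membrane. The members were all genes whose array name is Cyp, a family number, 1 letter and a gene number, which gave 89 of the 34648 gene names on the array, in 16 families and measured by 114 probes. CMT93 is an established mouse colon carcinoma line, taken per the labels from the rectum of a 19-month-old animal of strain C57BL/ICRF. Both cultures were grown in DMEM. The labels give the same treatment text, LPS at 3 µg/mL for 24 h, for both samples. From the sample titles it was taken to apply to the LPS culture alone. Each group had 1 array, so no difference has a replicate check and no test between the groups was possible. A single tumour line limits what can be said of the P450s of whole bowel.

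P450 enzymes are haem proteins that insert an oxygen atom into their substrate, with electrons passed on by a reductase. Families 1 to 3 hold many enzymes that clear drugs and plant compounds, and family 4 hydroxylates fatty acids and eicosanoids at their end. The higher family numbers work on sterols, steroid hormones, bile acids, vitamin D and retinoic acid. In liver, inflammation is known to lower many P450 transcripts, while gut epithelium carries its own smaller set of these enzymes.

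Of the non-control spots, 54.7% to 55.8% were well above background on the 2 arrays, and no spot was saturated. The arrays shared 1 slide and 1 scan. Of 14 epithelial marker genes 12 were measured, among them the keratin genes Krt8, Krt18 and Krt19. Cdx2, an intestinal transcription factor gene, and Tff3, a goblet cell gene, gave no signal clearly over background. All 12 measured epithelial markers were below 0 (LPS minus control), 1 of them at least 2-fold lower, against 55.5% and 0.571% of all measured genes. The summed intensity of the 14 epithelial markers was 813747 with control cells and 679418 with LPS. Of 12 hepatocyte markers 8, including Alb, were well above background on neither array, and the 12 summed to 3017 and 2731. The 4 measured were Apoa2 at 2379 and 2198, Apoh at 452 and 392, Tat at 105 and 78.5, and Serpina1a at 21.4 and 21.3. Of 10 macrophage markers 4 were measured, led by Itgam at 7516 and 7780 and Csf1r at 1575 and 1587, 3 passed on 1 array, and Lyz2, Tyrobp and Laptm5 were on neither. The 10 summed to 10327 and 10785. Of 10 absorptive colonocyte markers 5 were measured, 3 of them above 0. Car2 was 2.29-fold higher, from 2265 to 5038, Fabp2 and Car4 were at 0.62 and 0.12, and Car1 and Guca2a at -0.16 and -0.10. Aqp8, above background with control cells alone, was 1.81-fold lower with LPS by its own signals after scaling of the arrays. Slc26a3, Guca2b, Alpi and Sis were on neither array. The list summed to 7681 and 10758. Fibroblast markers had 2 of 8 measured, both above 0, with sums of 227 and 292, and endothelial markers 2 of 7, with sums of 5465 and 5467, nearly all from Kdr. The part of any of these markers' shifts in the P450 values was not tested.

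Most P450 genes gave little signal in these cells. Each gene was read from its brightest probe, and it counted as measured if that probe exceeded background clearly on both arrays (the scanner software's own flag). By this rule 35 of 89 P450 genes (39.3%) were measured, against 20328 of all 34648 gene names (58.7%). A further 5 passed with control cells alone, 2 with LPS alone and 47 on neither array. Family 2, the largest, had 16 of 44 genes measured, and family 4 had 7 of 17. Of the 13 Cyp2c genes 4 were measured, of the 9 Cyp2d genes 3, of the 6 Cyp2j genes 3, and of the 5 Cyp2b genes 1. Cyp4f had 4 of 9, Cyp4a 2 of 5 and Cyp3a 2 of 7.

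Several enzymes best known from liver or endocrine organs were above background on neither array. These included Cyp1a2, Cyp2e1, Cyp7a1 and Cyp8b1, which act in hepatic drug and bile acid metabolism. Cyp11b1, Cyp11b2 and Cyp19a1, the last steps towards corticosteroids and oestrogens, were also on neither. The same held for Cyp24a1 and Cyp27b1, which break down and activate vitamin D, and for Cyp26c1, which clears retinoic acid. The others on neither were 9 Cyp2c, 4 Cyp2b, 4 Cyp2d, 3 Cyp2j, 2 Cyp2a, 4 Cyp3a, 4 Cyp4f and 3 Cyp4a genes and Cyp2f2, Cyp2g1, Cyp4b1 and Cyp4x1. An array signal near background gives only an upper bound, so these transcripts were not detectable rather than absent.

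**Figure D1:**
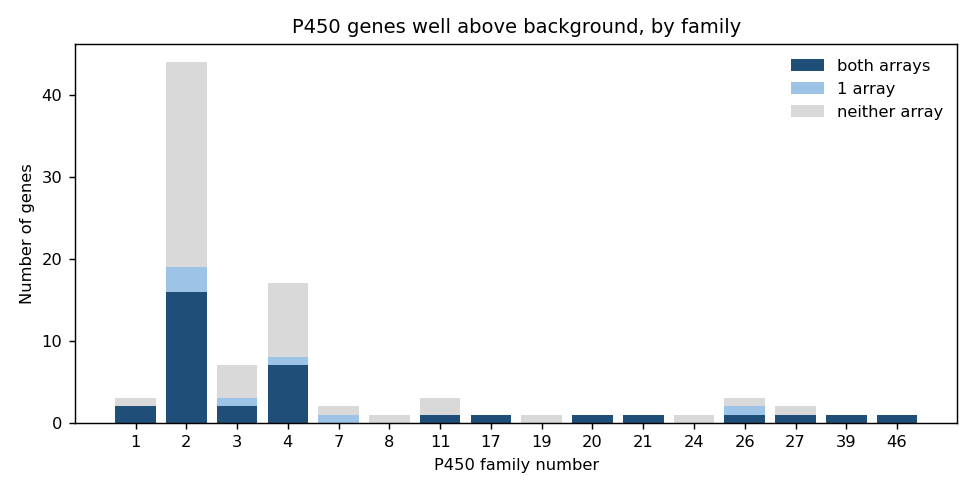
Bars count P450 genes (vertical axis, number of genes) by family number (horizontal axis), divided into genes well above background on both arrays, on 1 array and on neither. In family 2, 25 of 44 genes were on neither array, while families 17, 20, 21, 39 and 46 each had their 1 gene on both.

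None of the 35 P450 genes measured on both arrays differed 2-fold between them, while Cyp4f39, seen above background with control cells alone, was past 2-fold lower by its bound. All values are log2 of the spot intensity relative to the 75th percentile of the same array, and a difference is LPS minus control. Over the 35 measured P450 genes the differences ran from -0.97 to 0.75, with a median of -0.03, and 19 were below 0. Over all 20328 measured genes the median was -0.02, 55.5% were below 0, 1.46% were at least 2-fold higher and 0.571% at least 2-fold lower. With 35 genes, a share of 2.03% past 2-fold either way comes to less than 1 gene, so the count of 0 does not set the P450 genes apart. The SD of the differences was 0.39 over the P450 genes and 0.38 over all measured genes.

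At the lower size of 1.5-fold, 3 P450 genes were lower with LPS and 3 were higher. Those lower were Cyp1a1, Cyp2b10 and Cyp27a1, and those higher were Cyp2t4, Cyp21a1 and Cyp2d40. Together they were 6 of 35, or 17.1%, where 2.68% of all measured genes were at least 1.5-fold lower, 3.59% at least 1.5-fold higher and 6.27% either. All but Cyp21a1 lay below the median brightness of all measured genes, where 5 of 25 P450 genes and 9.63% of all genes passed this size. Above the median brightness it was 1 of 10 P450 genes against 2.9%. With normexp background correction, which damps differences between dim spots, Cyp2t4 and Cyp2d40 dropped below 1.5-fold. This left 4 of 35 P450 genes past it, against 3.19% of all measured genes.

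Error could be taken only from probes printed many times per array, so it describes spotting and scanning but not culture to culture variation. Such probes numbered 238 above background, and the typical (median) SD of their log2 differences was 0.05. In 8 groups of brightness the median SD ranged from 0.14 for the dimmest to 0.03 for the brightest, and the highest single SD was 0.37. Each value after ± below is this SD for probes of like brightness.

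**Figure D2:**
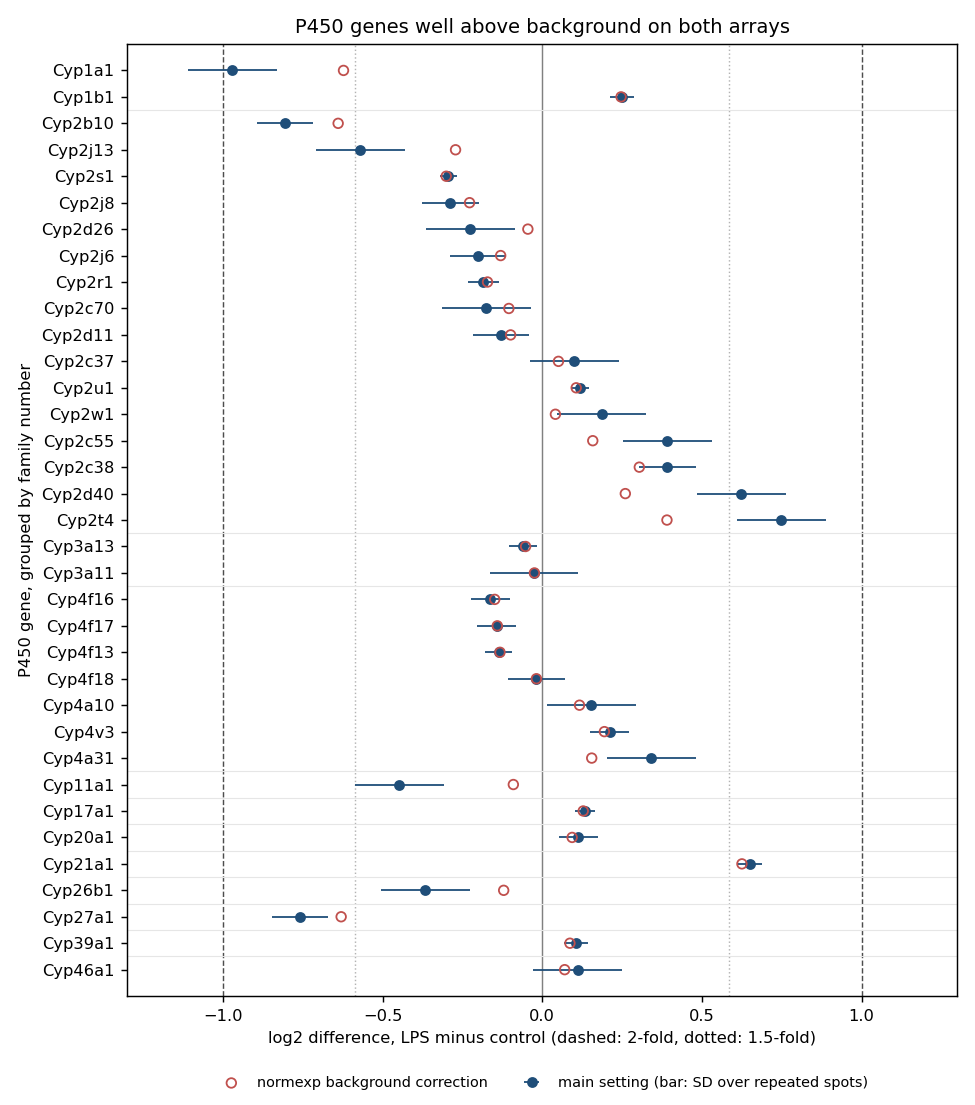
Each filled point is the log2 difference, LPS minus control (horizontal axis), of a measured P450 gene (vertical axis, grouped by family number), with bars for the SD over repeated spots and open circles for normexp background correction. All 35 genes lie between -0.97 and 0.75, inside the dashed 2-fold lines, and the open circles of dim genes such as Cyp2t4 and Cyp11a1 lie nearer to 0.

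Family 1 holds the classic targets of the aryl hydrocarbon receptor (AhR), which senses planar aromatic compounds and indoles and binds DNA with its partner Arnt. Cyp1a1, which oxidises such compounds and is the usual readout of the receptor, gave an intensity of 161 in control and 79.4 in LPS cells. After scaling it was 1.96-fold lower with LPS, at -0.97 ± 0.14, the lowest value among the measured P450 genes, and at -0.62 with normexp. Its unscaled intensities were slightly more than 2-fold apart. Cyp1b1, a relative that also hydroxylates oestrogens, gave 2323 and 2676. Its difference was 0.25 ± 0.04, on the opposite side of 0 from Cyp1a1. The Cyp1a1 probe lies at chr9:57551535-57551594 and that of Cyp1b1 at chr17:80106547-80106606 (mm9).

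Cyp2b10, a phenobarbital-inducible enzyme and the usual target of the receptor CAR, stood next to Cyp1a1 in size. Its intensity was 353 in control and 196 in LPS cells, 1.75-fold lower at -0.81 ± 0.09. With normexp it was at -0.64. Its probe lies at chr7:26711522-26711581 (mm9).

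The promoters of these 3 genes are shown because Cyp1a1 and Cyp2b10 had the lowest differences and Cyp1b1 shares a regulator with Cyp1a1. Each run is the 250 bases before the start of the gene, from RefSeq on GRCm38.p6, at chr9:57697363-57697612 (plus strand), chr7:25897408-25897657 (plus strand) and chr17:79715062-79715311 (minus strand). Capitals mark GCGTG, the core bound by AhR and Arnt, and TATAAA, the TATA box, on either strand.
Cyp1a1: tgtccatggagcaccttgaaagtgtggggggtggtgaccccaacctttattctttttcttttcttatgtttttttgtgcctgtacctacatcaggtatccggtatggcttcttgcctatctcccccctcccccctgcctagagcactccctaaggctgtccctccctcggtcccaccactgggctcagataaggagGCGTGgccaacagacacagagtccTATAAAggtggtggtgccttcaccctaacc
Cyp2b10: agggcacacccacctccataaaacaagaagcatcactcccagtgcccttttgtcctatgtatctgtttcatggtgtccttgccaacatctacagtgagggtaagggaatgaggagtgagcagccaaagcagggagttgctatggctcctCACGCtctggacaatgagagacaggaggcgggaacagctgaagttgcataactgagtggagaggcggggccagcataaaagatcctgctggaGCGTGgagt
Cyp1b1: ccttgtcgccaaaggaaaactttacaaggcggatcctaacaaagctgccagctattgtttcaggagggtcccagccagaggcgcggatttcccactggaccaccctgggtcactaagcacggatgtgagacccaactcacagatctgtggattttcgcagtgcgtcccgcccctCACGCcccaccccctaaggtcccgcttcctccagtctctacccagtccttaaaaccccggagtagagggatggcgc
Cyp1a1 has GCGTG on the forward strand with its first base 54 bases before the start, and TATAAA 30 bases before it. Cyp2b10 has GCGTG 9 bases before the start and its reverse complement 101 bases before. In Cyp1b1 only the reverse complement occurs, 76 bases before the start. The 2 motifs share no base in these promoters.

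Of the 89 P450 genes 68 had a RefSeq promoter entry, with 78 promoters. GCGTG was in 17.9% of them and in 28.2% of all 32851 promoters of the same length. TATAAA was in 34.6% of the P450 promoters and in 12.4% of all. Among promoters of measured P450 genes the shares were 33.3% and 30.0%. A match is a description of these letters and not a binding site.

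The other family 2 genes differed by less, or were dim. Cyp2t4, on chromosome 7 as is Cyp2b10, gave 49.0 in control and 79.7 in LPS cells. It had the highest difference of the measured P450 genes at 0.75 ± 0.14, but 0.39 with normexp. Cyp2s1, an enzyme of epithelia outside the liver, gave 12906 and 10198 and was at -0.29 ± 0.03. This is under 1.5-fold but well beyond the spot SD, and it lay between -0.33 and -0.29 over the alternatives. Cyp2r1, which starts the activation of vitamin D, gave 1542 and 1316, at -0.18 ± 0.05, with its other probe at -0.28. Cyp2w1, an enzyme known from colorectal tumours, was dim at 28.1 and 31.0, with a difference of 0.19 ± 0.14.

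The 3 measured of 6 Cyp2j genes, which make epoxides of arachidonic acid, were below 0, as were 55.5% of all measured genes. Cyp2j13 gave 72.6 in control and 47.4 in LPS cells, at -0.57 ± 0.14, and at -0.27 with normexp. Its 2 other probes were not well above background on both arrays and give no usable difference. Cyp2j8 was at -0.29 ± 0.09 and Cyp2j6 at -0.20 ± 0.09. With the median over its probes Cyp2j8 was at -0.09, through a second probe that was above background on neither array. The 3 measured Cyp2j genes lie in 1 cluster on chromosome 4.

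The measured Cyp2c genes on chromosome 19, which act on drugs and arachidonic acid, were above 0 for 3 of 4. Over all measured genes 55.5% were below 0. Cyp2c38 gave 163 and 208, at 0.39 ± 0.09, and was at 0.25 with the median over its probes. Its second probe was above background on neither array. Cyp2c55 was dim at 24.0 and 30.5. It was at 0.39 ± 0.14, but at 0.16 with normexp and 0.61 with floored subtraction. Cyp2c37 was at 0.10 ± 0.14 and Cyp2c70, which makes muricholic bile acids in liver, at -0.17 ± 0.14. With the median over its probes Cyp2c37 was at -0.53, through a second probe that was above background on neither array. In the Cyp2d cluster on chromosome 15, the mouse counterpart of a human drug-metabolising gene, Cyp2d40 gave 26.8 and 40.0, at 0.62 ± 0.14, and at 0.26 with normexp. Cyp2d11 and Cyp2d26 were at -0.13 ± 0.09 and -0.23 ± 0.14.

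Cyp2u1, which hydroxylates long-chain fatty acids, was read very differently by its probes. Its brightest probe, designed on a cDNA clone, gave 68367 in control and 71956 in LPS cells, at 0.12 ± 0.03. A probe on another clone gave 95.8 and 74.5, at -0.32 ± 0.14. The probe on its RefSeq transcript was well above background on neither array. The value of Cyp2u1 therefore rests on which of these probes reads the gene, which was not tested.

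All measured genes of families 3 and 4 were under 1.5-fold. Cyp3a13, a Cyp3a gene active in mouse intestine, gave 1824 and 1696, at -0.06 ± 0.04, with its other probe at -0.11. Cyp3a11, the main hepatic Cyp3a enzyme, gave 70.2 and 66.8, at -0.03 ± 0.14. The 4 measured Cyp4f genes, of the subfamily that inactivates leukotriene B4, were all below 0, as were 55.5% of all measured genes. Cyp4f16 gave 734 and 635, Cyp4f17 gave 958 and 841, and Cyp4f13 gave 1846 and 1627, at -0.16 ± 0.06, -0.14 ± 0.06 and -0.14 ± 0.04. Each of these was under 1.5-fold and larger than its spot SD, while the lower quartile of all measured genes was at -0.14. Cyp4f18 was at -0.02 ± 0.09, and its sign turned with quantile normalization and with the median over probes.

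The measured Cyp4a genes, fatty acid hydroxylases under the receptor PPAR alpha, were above 0 by their brightest probes, where 55.5% of all measured genes were below 0. Cyp4a31 gave 37.1 and 45.6, at 0.34 ± 0.14 and at 0.15 with normexp. Its other probes were above background on neither array, and with the median over its probes it was at 0.12. Cyp4a10 gave 56.3 and 60.6, at 0.15 ± 0.14, while its other measured probe gave 35.4 and 30.5, at -0.17 ± 0.14. The brightest probes of the pair share an unbroken run of 34 of 60 bases, and signal shared between them was not tested. Cyp4v3, another fatty acid hydroxylase, gave 555 and 624, at 0.21 ± 0.06.

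**Figure D3:**
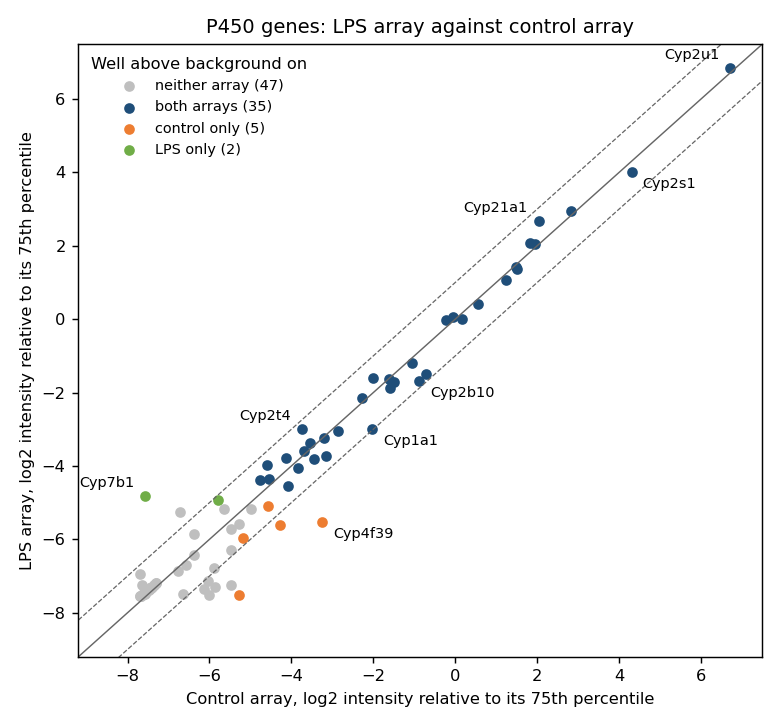
Each point is a P450 gene, with its log2 intensity on the control array (horizontal axis) and on the LPS array (vertical axis), both relative to the 75th percentile of that array, coloured by where it was well above background. The 35 measured genes lie between the dashed 2-fold lines, and points beyond them, such as Cyp7b1 and Cyp4f39, were above background on 1 array or neither.

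Among the measured sterol enzymes, Cyp27a1 was the 1 gene below 0. It encodes the mitochondrial sterol 27-hydroxylase, which starts the side-chain route to bile acids, and it is the 1 measured P450 gene whose probe is printed 10 times. Its 10 spots ran from 354 to 424 on the control array, with a median of 397, and from 199 to 258 on the LPS array, with a median of 226. Every LPS spot was below every control spot. The 10 differences lay between -0.91 and -0.55, with a mean of -0.76 ± 0.11 (SD, n = 10 spots of 1 array pair), or 1.69-fold lower. With normexp it was at -0.63. Its probe lies at chr1:74782203-74782262 (mm9). Cyp39a1 and Cyp46a1, which act on oxysterols and on brain cholesterol, gave 2525 and 2633, and 135 and 141. They were at 0.11 ± 0.04 and 0.11 ± 0.14.

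**Figure D4:**
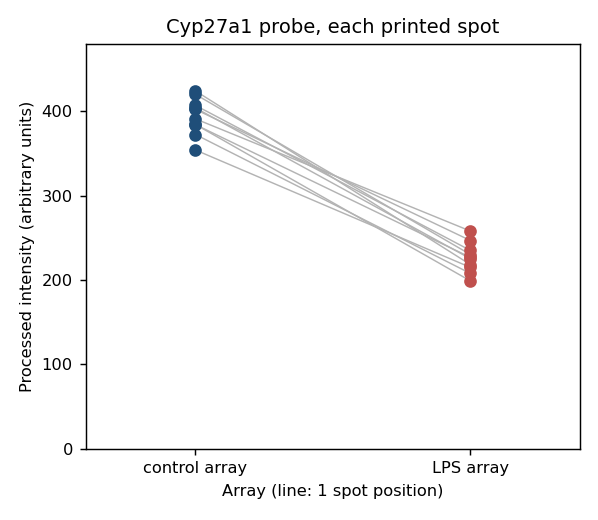
Each point is the processed intensity (vertical axis, arbitrary units) of 1 of the 10 spots of the Cyp27a1 probe on the control array and the LPS array (horizontal axis), with a line joining the same spot position. Every spot is lower on the LPS array, with medians of 397 and 226.

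Of the 6 steroid hormone genes 3 were measured. Cyp21a1, the adrenal 21-hydroxylase, gave 2668 in control and 4058 in LPS cells. It was 1.57-fold higher at 0.65 ± 0.04, the largest difference among the 10 measured P450 genes above the median brightness, and it lay between 0.62 and 0.86 over the alternatives. Its other probe was dim, at 10.3 and 21.0, and above background on the LPS array only. In the RefSeq table Cyp21a1 overlaps the pseudogene Tnxa, and signal from the pair cannot be told apart here. Of its measured neighbours, Stk19, Dxo and Skiv2l were at 0.03 ± 0.04, 0.07 ± 0.05 and 0.13 ± 0.04. Cyp17a1, the 17-hydroxylase and lyase of androgen synthesis, gave 4616 and 4910, at 0.13 ± 0.03. Cyp11a1, which cleaves the cholesterol side chain, was dim at 38.3 and 27.2. It was at -0.45 ± 0.14, and at -0.09 with normexp.

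The probes of Cyp17a1, Cyp11a1 and Cyp46a1, enzymes known from gonads, adrenal gland and brain, are shown because they cross an intron by their coordinates. The 60 bases of each span 614, 471 and 2399 bases of mm9, at chr19:46742594-46743207, chr9:57874074-57874544 and chr12:109596310-109598708. Where the junction falls in each probe was not analysed, and whether unspliced RNA adds signal was not tested. Measured probes of Cyp2j13, Cyp3a11 and Cyp4f13 also cross an intron by their coordinates and are not shown.
Cyp17a1: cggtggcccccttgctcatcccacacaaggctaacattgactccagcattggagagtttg
Cyp11a1: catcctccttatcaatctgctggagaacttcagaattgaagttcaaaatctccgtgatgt
Cyp46a1: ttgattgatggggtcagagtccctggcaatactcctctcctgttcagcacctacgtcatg
All 3 were well above background on both arrays, where the dimmest probes so called gave 15.9 with control cells and 16.9 with LPS.

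The enzymes that clear retinoic acid were dim. Cyp26b1 gave 59.4 and 44.6, at -0.37 ± 0.14, and at -0.12 with normexp. Cyp26a1 gave 27.5 on the control array and was not well above background on the LPS array, where it was at least 1.44-fold lower. Cyp20a1, an orphan enzyme without a settled substrate, gave 629 and 659, at 0.11 ± 0.06.

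For genes above background on 1 array only a working bound can be given. On the array where the gene was dim, its level was taken as its own signal or that of the dimmest probe clearly above background, whichever was larger. Some probes brighter than that dimmest probe were still not called above background, such as that of Cyp19a1 at 20.6 with control cells. The folds given as at least in this report are therefore not strict limits. Cyp7b1, the oxysterol 7-hydroxylase, gave 3.44 in control and 22.4 in LPS cells, which is at least 1.45-fold higher. Cyp2a4, a steroid hydroxylase, gave 11.7 and 20.7, at least 1.34-fold higher. On the control side, Cyp4f39, which makes very long hydroxy fatty acids for the skin barrier, gave 68.8 and 13.7. It was at least 3.94-fold lower with LPS, the largest bound among the P450 genes, from 1 probe with 1 spot. Cyp2d10 and Cyp3a16 were at least 1.91-fold and 1.03-fold lower, and for Cyp2d9 the bound was under 1, so no fold is given. Over all gene names 946 passed with control cells alone and 669 with LPS alone.

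Of 6 P450 genes with several measured probes, Cyp2r1 and Cyp3a13 kept 1 sign, while the probes of Cyp20a1, Cyp2u1, Cyp4a10 and Cyp4f18 fell on both sides of 0. None of these 4 genes was past 0.32 in size on any measured probe. Among the 42 P450 genes above background on at least 1 array, 40 had a probe that shared under 20 unbroken bases with any probe of another P450 gene. The exceptions were Cyp4a10 and Cyp4a31. Probes were not set against whole transcripts, so shared signal within the Cyp2c, Cyp2d and Cyp3a clusters was not tested.

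The partners of the P450 enzymes are described from lists of their electron donors, haem enzymes, receptors and conjugating enzymes. All 9 electron partners were measured and none was 2-fold different, with a median of 0.04. Por, the reductase that feeds every microsomal P450, gave 7701 and 7646, at 0.03 ± 0.03. Fdx1, the ferredoxin of the mitochondrial enzymes such as Cyp27a1 and Cyp11a1, was highest at 0.59 ± 0.03, and Cyb5b followed at 0.45 ± 0.03. Fdxr and Cyb5r1 were lowest at -0.19 ± 0.05 and -0.17 ± 0.04. Of 12 haem genes all were measured, none was 2-fold different and the median was 0.02. Hmox1, which breaks haem down, was highest at 0.50 ± 0.04, while Uros and Fech were at -0.27 ± 0.05 and -0.14 ± 0.04.

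Of 28 receptors and regulators 24 were measured, with a median of 0.09. Of these 1 was at least 2-fold higher and none 2-fold lower, against 1.46% and 0.571% of all measured genes. Cebpd, a transcription factor of the acute-phase response, gave 6167 in control and 31933 in LPS cells, 5.34-fold higher at 2.42 ± 0.03, and Cebpb followed at 0.90 ± 0.03. Ahr gave 11006 and 16667, 1.56-fold higher at 0.64 ± 0.03, beside the lower Cyp1a1. Its partner Arnt was at 0.15 ± 0.04, its repressor Ahrr at -0.15 ± 0.14. Vdr, the vitamin D receptor gene, was lowest at -0.34 ± 0.06, followed by Rarb at -0.22 ± 0.14. Nr1i3, the gene of CAR, was at -0.20 ± 0.14, and Hnf4a, a main activator of P450 genes, at -0.21 ± 0.03. Nr1i2, which encodes the drug receptor PXR, was well above background on neither array. Cebpa, seen above background with control cells alone, was at least 1.12-fold lower with LPS.

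Of 8 further AhR targets 3 were measured, with a median of -0.05. Aldh3a1, an aldehyde dehydrogenase, was at 0.74 ± 0.04, while Tiparp and Ahrr were at -0.05 ± 0.04 and -0.15 ± 0.14. Among them the values thus lay on both sides of 0, as for Cyp1a1 and Cyp1b1. Gsta1 had no probe under its name.

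The conjugating enzymes, which act after the P450s, spread more widely. Their list also holds the epoxide hydrolase genes Ephx1 and Ephx2, which do not conjugate. Of 35 on the list 30 had a probe under their name and 20 were measured. The measured genes had a median of -0.23, with 15 below 0, 2 at least 2-fold higher and none 2-fold lower. Over all measured genes 55.5% were below 0, 1.46% at least 2-fold higher and 0.571% at least 2-fold lower. Mgst1, a microsomal glutathione transferase, gave 117 and 769, 6.76-fold higher at 2.76 ± 0.09. Gstt1 gave 238 and 817, 3.54-fold higher at 1.82 ± 0.09. At the other end Gstm2 and Gstm3 were at -0.74 ± 0.06 and -0.72 ± 0.09, Gstm3 passing 2-fold lower, at -1.11, with the median over its probes. Further, Gstm1 and Tpmt, chosen after their values were seen, were at -0.71 ± 0.04 and -0.64 ± 0.09. Signal shared between the related Gstm genes was not tested. Of 14 retinoid and vitamin D genes 11 were measured, with a median of 0.24. Dhrs3, a retinal reductase, was 2.08-fold higher at 1.06 ± 0.05, Rbp4 was at 0.40 ± 0.03, and Aldh1a3, which makes retinoic acid, was lowest at -0.85 ± 0.14.

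**Figure D5:**
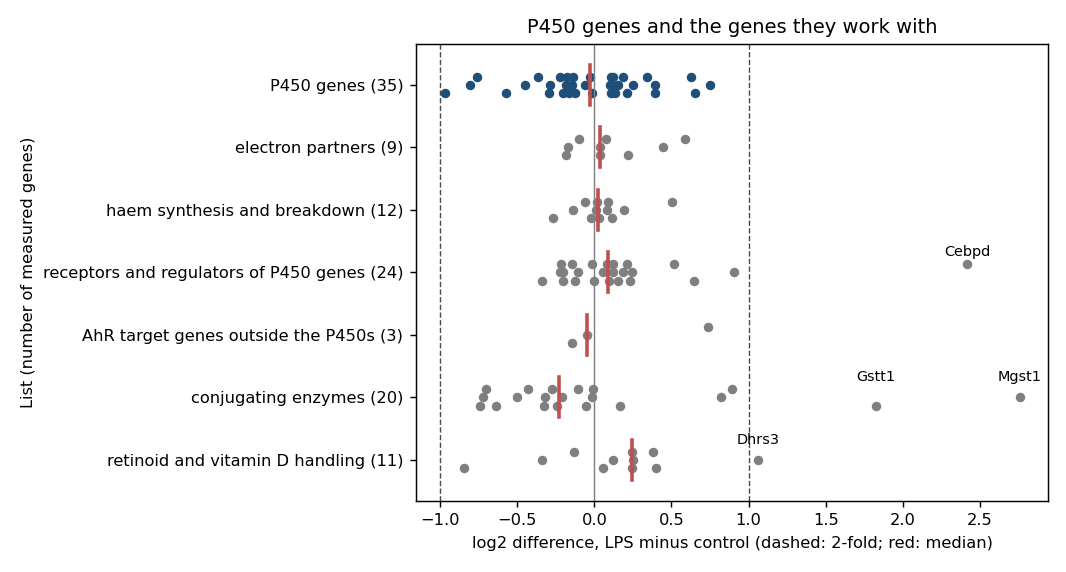
Each point is the log2 difference, LPS minus control (horizontal axis), of 1 measured gene of a list (vertical axis, number of genes in brackets), with the median as a red bar and 2-fold as dashed lines. No measured P450 gene, electron partner or haem gene reaches a dashed line, while Cebpd at 2.42, Gstt1 at 1.82, Mgst1 at 2.76 and Dhrs3 at 1.06 pass it.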

How the data were processed

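The deposited values are spot intensities from Agilent Feature Extraction 10.10.1.1, background-subtracted and detrended per the file headers, which name build mm9. Array controls and 223 spots flagged as outliers were dropped. From there log2 intensity minus the 75th percentile of each array was computed, spots of one probe were averaged, and the brightest probe stood for an array gene name. The P450 members, gene lists and sizes of 2-fold and 1.5-fold were chosen with earlier results of these data known. All measured P450 genes are named, genes of the other lists by their 2 highest and 2 lowest members, those past 2-fold, and Ahr, Arnt, Ahrr, Por, Vdr, Nr1i2, Nr1i3 and Hnf4a. The spot SD comes from probes with at least 8 unflagged spots, in 8 groups of brightness. The number of arrays limits precision. Alternatives changed the background correction (normexp with an offset of 50, or subtraction floored at 1), scaling, probe choice, detection and size. The size rule was run on simulated data, with planted differences away from 2-fold and the same noise for dim and bright spots. It therefore does not check the rule for genes near 2-fold or for dim genes. R 4.3.3 with limma 3.58.1, Python 3.11.15, numpy 2.4.6, pandas 2.3.3 and matplotlib 3.10.9 were used. Probe exons and UTRs were not analysed here. One gene of the partner lists, which is no P450, is not reported here.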

Additional observations from a re-analysis of the deposited data

How the results depend on the processing

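None of the 35 P450 genes measured on both arrays reached 2-fold in either direction under the 6 alternatives of background correction, scaling and probe choice, nor among the brighter genes, nor 4-fold. With the looser signal flag 1 of 51 was at least 2-fold higher and 3 lower, against 3.03% and 2.25% of 24566 genes. Without a background filter, over all 89 genes, 2 were higher and 8 lower, against 3.92% and 3.39% of all 34648 gene names. At 1.5-fold in the main processing 3 of 35 were higher and 3 lower, against 3.59% and 2.68% of all measured genes. The P450 median was -0.087 with the median over probes, -0.129 with the looser flag, 0.11 without a filter and 0.0228 among the brighter genes. Of 35 measured P450 genes 33 kept their sign under these 6 alternatives, the exceptions being Cyp2c37 and Cyp4f18. Of 210 such values 26 moved by more than the spot SD, 13 of them with normexp. The median of the retinoid list was 0.19 with quantile normalization, 0.12 over probes and 0.18 without a filter, that of AhR targets 0.11 without a filter and 0.34 among brighter genes, and that of conjugating enzymes -0.17 without a filter. Filters change which genes enter these values; for the other shifts the cause was not tested. Signal over background is a limit for the dim genes, and 25 of the 35 lay below the median brightness. No paired analysis was possible because each group had 1 array.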

Other observations

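Some P450 names fall outside the naming pattern, with a second letter, a pseudogene suffix or no letter. Of 9 such names, Cyp51, the lanosterol demethylase gene of cholesterol synthesis, was measured at 0.08 ± 0.04 and the pseudogene Cyp4f41-ps at -0.38 ± 0.14. Cyp2ab1 passed with control cells alone, where it was at least 1.28-fold brighter than with LPS, and the other 6 were on neither array. Of the P450 relatives with other names, Ptgis, the prostacyclin synthase gene, was at 0.18 ± 0.14, and the thromboxane synthase gene Tbxas1 was well above background on neither array.

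The 2 probes of Cyp4f18 start 1 base apart on chromosome 8 (mm9). They gave 213 and 134 on the control array and 204 and 147 on the LPS array, with differences of -0.02 and 0.18. The gap between these probes for nearly the same 60 bases was thus 0.198 on the log2 scale.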
